A study of Mus musculus with 288 samples.

Results

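The iron handling genes described here are 10 of the 35904 genes in the deposited tables, picked by symbol for their place in iron biology: Trf, Tfrc, Tfr2, Slc11a2, Hamp, Slc40a1, Fth1, Ftl1, Ireb2 and Alas1. All 10 were found in the tables of all 6 tissues. The mice were male C57BL/6J wild-type animals, 8 weeks old. They spent 7 days either in normoxia or in intermittent hypoxia (IH, oxygen cycling between 21% and 8% during the light, inactive phase), and then 2 days in constant darkness in room air. Lung, liver, kidney, muscle, heart and cerebellum were taken on the second day of darkness at 8 time points 3 hours apart, from 1:30 to 22:30, with 3 mice per time point and treatment. This gives 24 libraries for each tissue and treatment and 48 for each tissue. No library holds the values of another. The levels are TPM made by the authors, abundances corrected for the length of each transcript and scaled to the library, and read depth was not used here. The comparisons ask which of these genes differ after IH, whether they cycle over the day, and whether tissues differ in their response.

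Iron travels in plasma bound to transferrin and enters cells through the transferrin receptor, is carried out of the endosome by a divalent metal transporter, is stored in ferritin shells and leaves cells through ferroportin. The liver sets the body's iron balance by secreting hepcidin, which removes ferroportin from cell surfaces and thereby lowers iron in plasma. Inside cells, iron regulatory proteins bind a hairpin called the iron responsive element (IRE) when iron is scarce, which holds back translation of messages that carry it in the 5′ UTR and stabilises the transferrin receptor message that carries it in the 3′ UTR.

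Because this hairpin links several of the 10 genes, its sites are shown before the levels. The pattern searched in the UTRs of GENCODE M21 (GRCm38) was a C, a stem of 5 bases, the 6 base loop CAGTGN and 5 bases that pair with the stem, with G to T pairs allowed. It was found in the 5′ UTR of 31 of 20916 genes (0.148%) and in the 3′ UTR of 129 of 21707 (0.594%). Fth1 and Ftl1, the heavy and light chains of ferritin, each have 1 site in the 5′ UTR, at chr19:9982732-9982760 on the plus strand and chr7:45459779-45459807 on the minus strand. Slc40a1, the gene of ferroportin, has 1 in its 5′ UTR, at chr1:45925465-45925493 on the minus strand. Tfrc, the transferrin receptor, has 4 in its 3′ UTR on the plus strand, the first at chr16:32631219-32631247 and the last at chr16:32631710-32631738. Capitals mark the loop.
Fth1 5′ UTR: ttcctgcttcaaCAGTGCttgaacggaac
Ftl1 5′ UTR: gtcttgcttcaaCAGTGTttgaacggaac
Slc40a1 5′ UTR: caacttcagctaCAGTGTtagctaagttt
Tfrc 3′ UTR, first site: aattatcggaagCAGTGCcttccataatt
Tfrc 3′ UTR, last site: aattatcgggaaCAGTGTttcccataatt
The search fixed every base of the loop but the last, which is C or T in the sites shown. Fth1 and Ftl1 share the stems on both sides of the loop. No site matched in the UTRs of the other 6 genes, which says only that these letters in this arrangement are not in their annotated UTRs. Levels summed over the transcripts of a gene do not show what these elements do to translation.

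Promoter sequences from RefSeq (GRCm38.p6, 300 bases around each start) were at hand for 7 of the 10 genes, with 12 entries. There was none for Trf, Slc40a1 and Slc11a2. Both strands were searched for the E-box CACGTG (7.15% of all 32851 promoters), the hypoxia response core ACGTG (19.6%), which every CACGTG also contains, the ROR and REV-ERB motif AGGTCA (16.3%), and the D-box as TTATGTAA or TTACGTAA (1.06%). The hypoxia core was in both entries of Tfrc, which overlap and share this 1 site, and in 2 of the 3 of Tfr2. The other motifs were in none of the 12, which says only that these letters are not in these windows. The first entry of each receptor gene is shown because no other member with an entry holds the core. Hamp, Ftl1 and Alas1, which also changed after IH in a tissue, have entries without it. The positions of the entries shown are chr16:32608646-32608945 and chr5:137569590-137569889, both on the plus strand, and capitals mark the core.
Tfrc promoter: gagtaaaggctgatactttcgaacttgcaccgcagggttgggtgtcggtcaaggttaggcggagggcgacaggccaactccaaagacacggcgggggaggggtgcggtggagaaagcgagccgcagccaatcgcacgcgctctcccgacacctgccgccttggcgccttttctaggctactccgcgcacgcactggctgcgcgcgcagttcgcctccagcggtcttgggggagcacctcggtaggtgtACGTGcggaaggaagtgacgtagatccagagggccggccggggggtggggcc
Tfr2 promoter: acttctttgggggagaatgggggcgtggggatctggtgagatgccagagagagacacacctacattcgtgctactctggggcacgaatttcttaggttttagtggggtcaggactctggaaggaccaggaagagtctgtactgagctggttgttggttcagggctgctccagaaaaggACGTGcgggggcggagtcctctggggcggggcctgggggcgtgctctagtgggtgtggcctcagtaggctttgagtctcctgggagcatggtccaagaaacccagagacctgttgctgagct
A match is a description of the letters and was not tested for binding.

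3 libraries stood apart from the rest of their tissue before any of these genes were compared. For each tissue the summed TPM of 8 marker genes was set against the median of its 48 libraries. The IH library of the liver taken at 13:30 and numbered 2 reached 2.17% of the liver median, and its heart markers reached 32.2% of the median of heart libraries. The IH library of the cerebellum taken at 1:30 and numbered 3 reached 10.2%, with heart markers at 36.4% of the heart median. The IH library of the lung taken at 1:30 and numbered 2 reached 20.8%. All other libraries lay above 25% of the median of their labelled tissue, a limit set after these values were seen. Leaving each of the 3 out changed no limma call between the treatments among the 10 genes in its tissue. But calls of rhythm changed in lung and liver. The wider pathway genes past 1.5-fold changed there and in the cerebellum. Values without these libraries are given with those results.

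In normoxia each gene had its own order over the tissues, and the liver led for 7 of the 10. Levels are given as mean TPM with the SD over 24 libraries. The orders use values put on a common scale over all normoxia libraries, and limma tested each pair of neighbours in an order. For this scale TPM was divided by a factor per library, whose median ran from 0.584 in the liver to 1.72 in the lung. Of 50 neighbouring pairs, 37 differed, beside 65.4% of such pairs over all genes, each in its own order. This count includes Tfr2 between heart and kidney, where it averaged under 1 TPM, and such pairs are not read as differences. The tests treat libraries of different tissues as independent, although organs may share a mouse, and with 1 number and time as 1 animal 37 differed too. Trf, which encodes the plasma carrier transferrin (chr9:103204001-103230444, minus strand), was at 10719.5 ± 1944 TPM in the liver. Its next highest level on the common scale was in the cerebellum, at 714 ± 191 TPM, followed by muscle, lung, heart and kidney, where it was lowest at 40.3 ± 9.67 TPM. Its deposited mean in the lung, 373 TPM, was above that in muscle, 289.7 TPM. All 5 neighbouring pairs of Trf differed. Tfrc, the receptor that takes up loaded transferrin (chr16:32608920-32632794, plus strand), ran the other way on the common scale: muscle was highest at 32.7 ± 9.73 TPM and the liver lowest at 8.90 ± 4.46 TPM, although the deposited mean of the cerebellum, 33.2 TPM, was above that of muscle. Kidney and cerebellum did not differ in Tfrc, nor did heart and lung. Tfr2, the second transferrin receptor and a part of hepcidin control (chr5:137569840-137587481, plus strand), was at 150.1 ± 14.9 TPM in the liver and at 2.18 ± 1.57 TPM in the cerebellum. In lung, kidney, muscle and heart it stayed under a mean of 1 TPM in the normoxia libraries. Slc11a2, which carries iron out of the endosome (chr15:100387898-100425072, minus strand), was highest in the kidney at 35.3 ± 7.07 TPM and lowest in the cerebellum on the common scale, with muscle and lung not different. As deposited, the Slc11a2 mean of the cerebellum, 9.39 ± 2.86 TPM, was above that of the heart, 5.66 TPM.

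Hamp, the gene of hepcidin (chr7:30942368-30944032, minus strand), was a liver gene with a smaller level in the heart. It averaged 2937 ± 1206 TPM in the liver, 26.7 ± 9.72 TPM in the heart and 15.0 ± 4.34 TPM in the lung. In muscle 6 normoxia libraries were listed at 0. Slc40a1, the iron exporter (chr1:45908068-45926523, minus strand), was also highest in the liver, at 46.9 ± 15.2 TPM, followed by the kidney at 21.1 ± 3.50 TPM, and all 5 of its neighbouring pairs differed. Fth1, a ferritin chain, was the most abundant of the 10 genes in every tissue but the liver, where Trf, Ftl1 and Hamp were above it. Fth1 (chr19:9980598-9985098, plus strand) was at 6896 ± 726 TPM in the kidney. Below it, muscle, cerebellum, heart and liver could not be ordered on the common scale. Their deposited means of Fth1 ran from 2534 TPM in the liver to 6405 TPM in the cerebellum. Ftl1 (chr7:45457944-45459884, minus strand) was at 6175 ± 985 TPM in the liver and at 534 ± 146 TPM in the cerebellum. Ireb2, an iron regulatory protein that binds the IRE (chr9:54863789-54912530, plus strand), ran from 6.46 ± 2.49 TPM in the heart to 20.4 ± 3.33 TPM in the kidney. On the common scale Ireb2 was highest in the liver. Alas1, the first enzyme of haem synthesis outside red cells (chr9:106233455-106248654, minus strand), was at 499.6 ± 479 TPM in the liver, a spread as wide as the mean that is described with the daily rhythms.

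**Figure D1:**
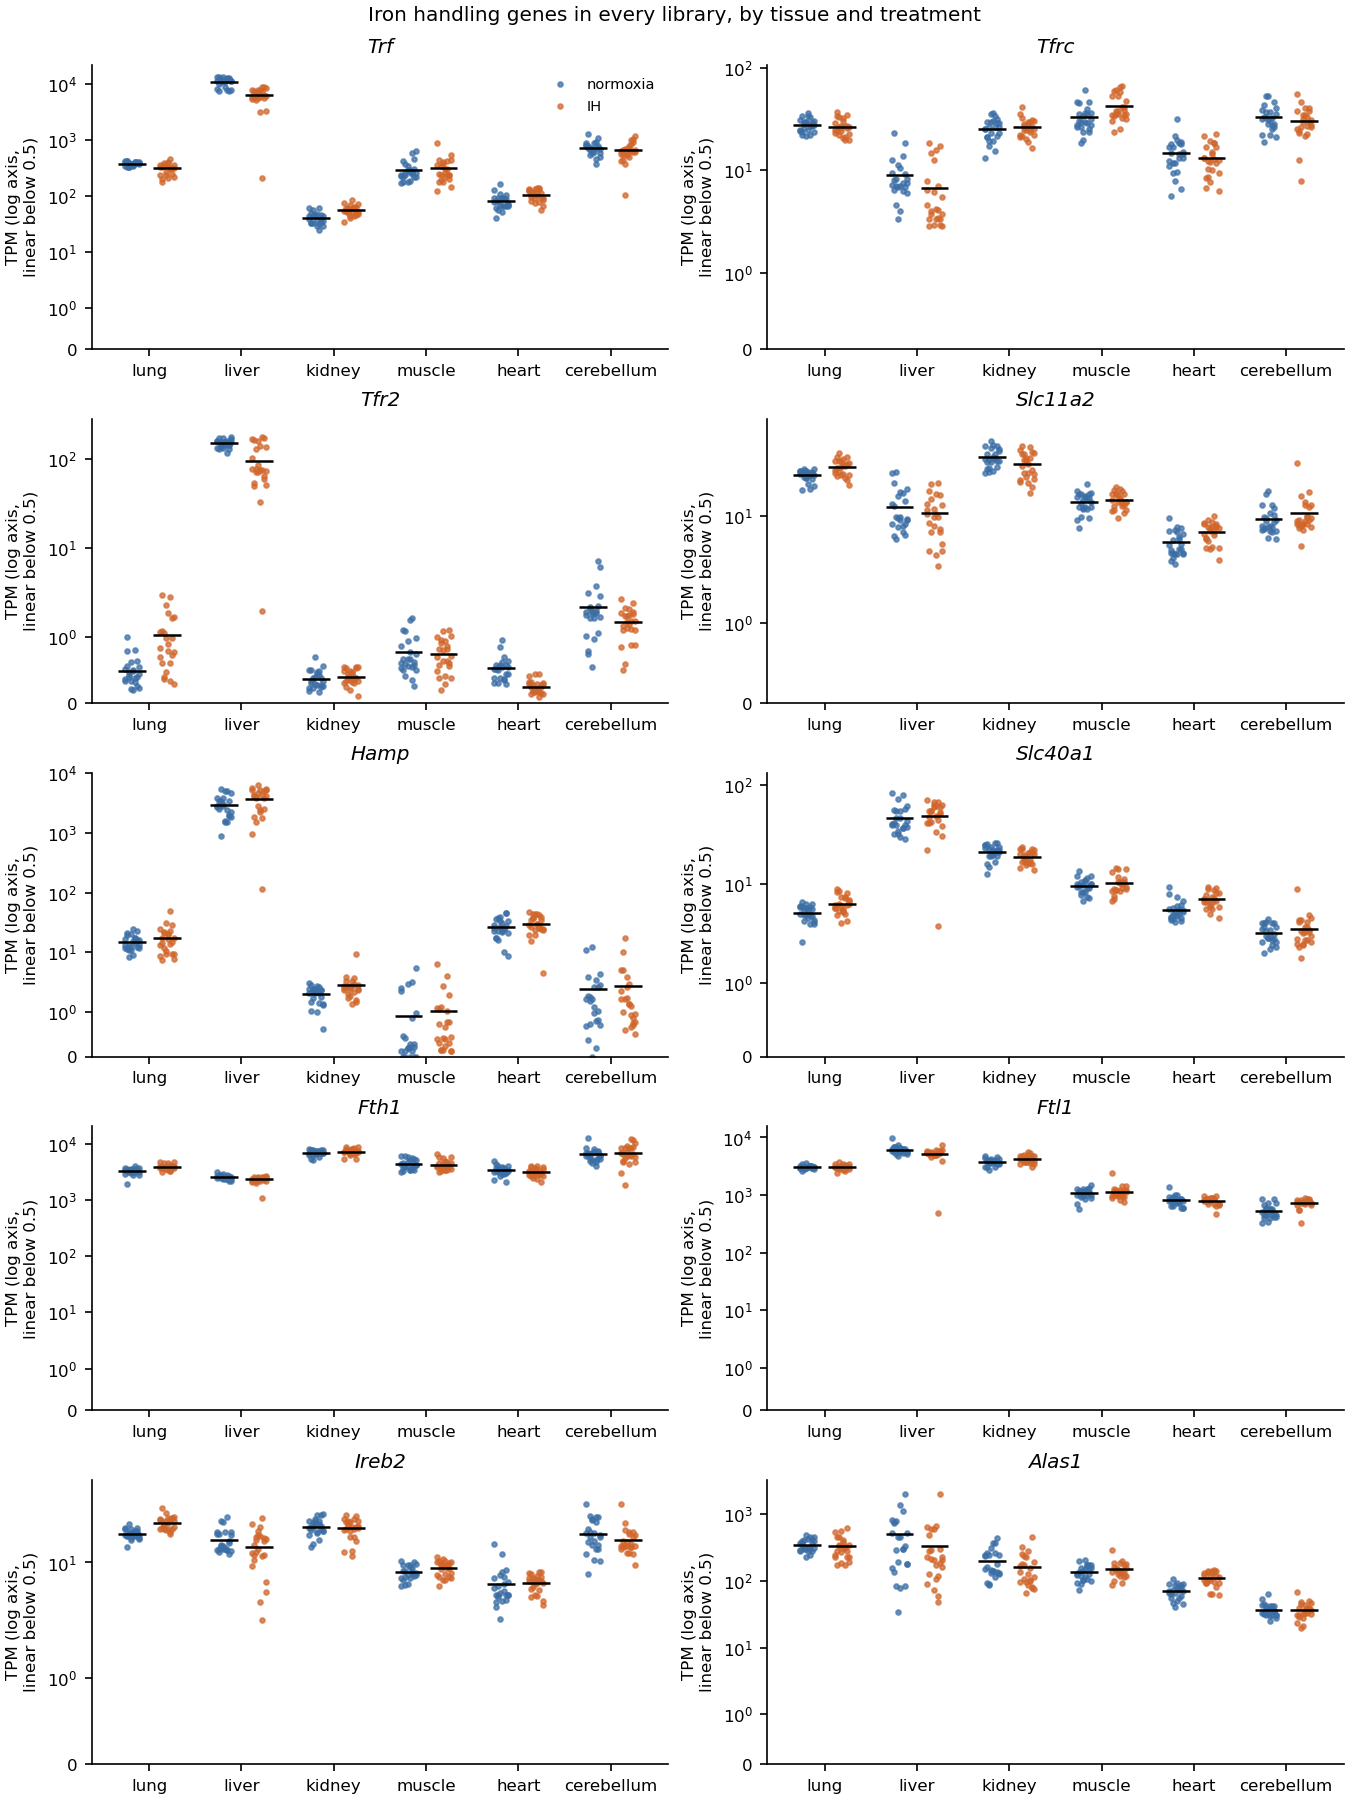
TPM of each of the 10 genes in every library by tissue and treatment, on an axis that is logarithmic except near 0. Liver libraries are highest for Trf, Tfr2 and Hamp, and the liver IH library at 13:30 stands far below the others for Trf and Tfr2.

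Over the 48 means by tissue and time in normoxia, the gene most alike Tfr2 among 15492 was Cfhr3, with Pearson r = 0.991. For Ftl1 it was Gm15590 at 0.985, for Slc40a1 it was Retsat at 0.979, and for Trf it was Prr16 at 0.970. Alas1 had the lowest best match, Man2a1 at 0.900. The 8 means of a tissue share that tissue, so these values describe mostly the tissue pattern.

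After IH, 14 of 55 tested pairs of gene and tissue differed by limma at an adjusted p of 0.05, with 8 higher and 6 lower. Only pairs with a mean of at least 1 TPM were tested, which left out Tfr2 in lung, kidney, muscle and heart, and Hamp in muscle. Changes are log2 differences of IH minus normoxia after scaling each library by the median of ratios within its tissue. On TPM as deposited, without this scaling, 14 pairs differed too, with 11 higher and 3 lower. With the log2 number of genes detected in a library as a further term, 11 differed, with 5 higher and 6 lower. The lung had 4 of 9 tested genes changed, all lower, beside 70.4% of all genes tested there. The liver had 2 of 10, both lower, beside 24.2%. The kidney had 3 of 9, all higher, beside 19.8%. The heart had 4 of 9, all higher, beside 45.2%. The cerebellum had 1 of 10, higher, beside 15.0%, or 24.4% without the library that stands apart. In muscle limma called 0 of 8, with 1 at an unadjusted p under 0.05, beside 10.4%. With a change of at least 1.5-fold as a further demand, 1 gene was called lower in the lung, beside 4.39% of all genes lower there and 13.51% in either direction. In the liver 2 were called lower, beside 2.56% lower and 3.66% in either direction. In the other tissues limma called 0, beside shares of all genes in either direction of 0.783% (kidney), 0.374% (muscle), 2.95% (heart) and 2.64% (cerebellum, or 5.22% without the library that stands apart). The median change of the tested members was -0.19 in the lung beside -0.08 over all genes, -0.19 in the liver beside -0.01, 0.11 in the kidney beside -0.01, and 0.04 in the heart beside 0.04.

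**Figure D2:**
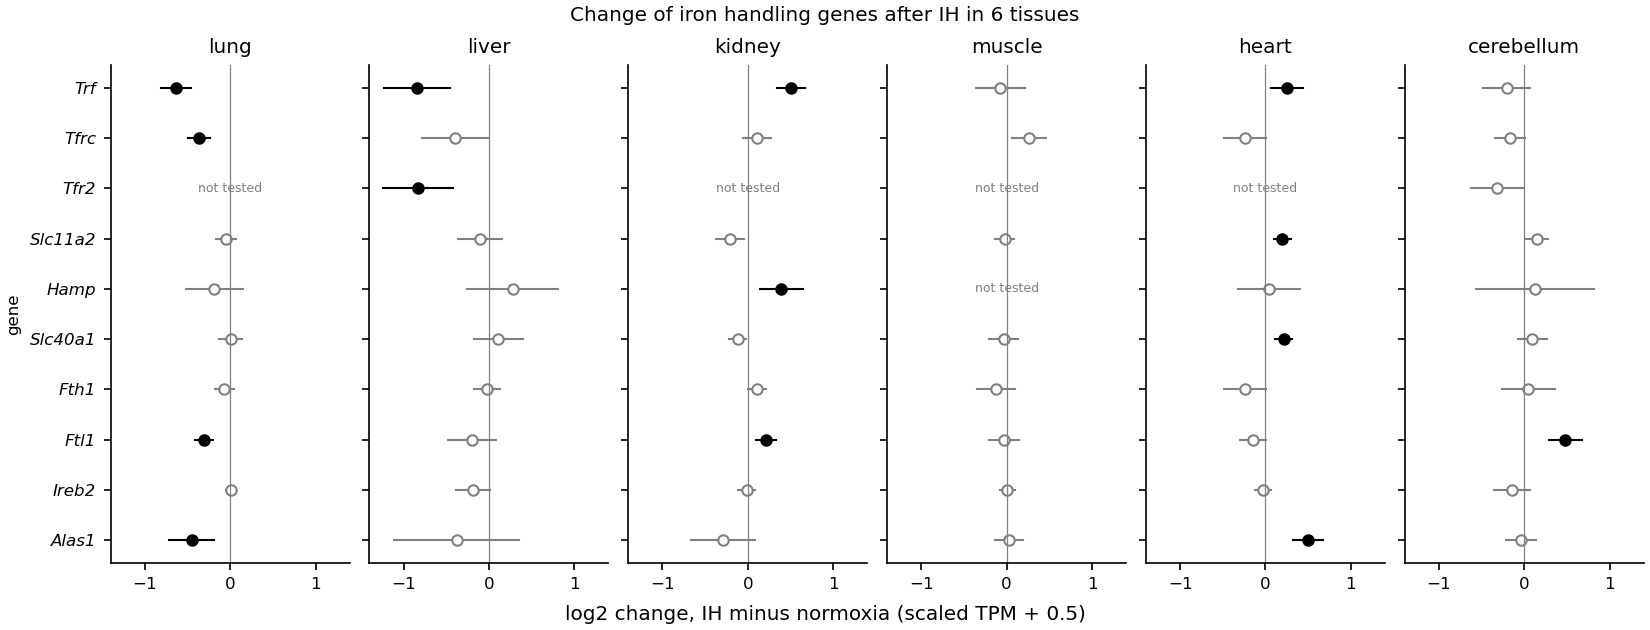
Log2 change after IH of each gene in each tissue with its 95% interval, filled where limma's adjusted p is at most 0.05. Trf lies below 0 in lung and liver and above 0 in kidney and heart.

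Trf in the liver was the largest fall. In normoxia its lowest, median and highest values were 7310.3, 11125 and 13246 TPM, and after IH they were 203, 6218 and 8828 TPM. Of the 24 IH libraries, 18 lay below every normoxia library, so the groups overlapped in part, and the lowest was the library at 13:30 that stands apart. The mean went from 10719.5 ± 1944 to 6129 ± 1936 TPM, a log2 change of -0.84 with a standard error of 0.194 (limma, adjusted p = 0.00134), and IH was lower at 8 of 8 time points. Without the library that stands apart, Trf changed by -0.68 with an adjusted p of 3.5e-06. Tfr2 fell with it: its lowest, median and highest values were 116, 152 and 177 TPM in normoxia and 1.97, 76.6 and 176 TPM after IH. For Tfr2, 16 of the 24 IH libraries lay below every normoxia library and the rest lay inside the normoxia range. The mean of Tfr2 went from 150.1 ± 14.9 to 94.9 ± 49.2 TPM, a log2 change of -0.83 with a standard error of 0.204 (limma, adjusted p = 0.00239), lower at 8 of 8 time points, and it was -0.65 with an adjusted p of 6.6e-06 without that library.

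The liver falls of Trf and Tfr2 were carried by the mice numbered 1 and 2 at each time point. Fitted in those numbered 1 alone, Trf changed by -1.05 and Tfr2 by -1.03, and in those numbered 2 by -1.48 and -1.58, or by -0.97 and -1.06 without the library at 13:30 that stands apart. In those numbered 3, Trf changed by -0.03 (adjusted p = 0.976 by limma) and Tfr2 by 0.08 (adjusted p = 0.761). The mean of Tfr2 in those numbered 3 was 155 ± 8.16 TPM in normoxia and 156 ± 18.2 TPM after IH (SD over 8 libraries). For Trf the same libraries gave 8546 ± 1448 TPM in normoxia and 7860 ± 758 TPM after IH (SD over 8 libraries), and their normoxia mean was the lowest of the 3 numbers. Without the mice numbered 1, neither gene passed the threshold, with Trf at -0.74 (adjusted p = 0.162) and Tfr2 at -0.74 (adjusted p = 0.196). With the library at 13:30 left out as well, both passed, with Trf at -0.49 (adjusted p = 0.0240) and Tfr2 at -0.46 (adjusted p = 0.0405). Without those numbered 2, Tfr2 did not pass, at -0.46 with an adjusted p of 0.0570. The labels do not say what the numbers stand for, and what sets number 3 apart was not tested. The same split was seen over all liver genes: limma called 1289 higher and 1748 lower in the mice numbered 1 alone, 841 and 1118 in those numbered 2 (1811 and 1819 without the library at 13:30), and 0 and 1 in those numbered 3. Without those numbered 1 it called 47 higher and 63 lower of 11438 genes, and without those numbered 2 it called 93 and 146.

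**Figure D3:**
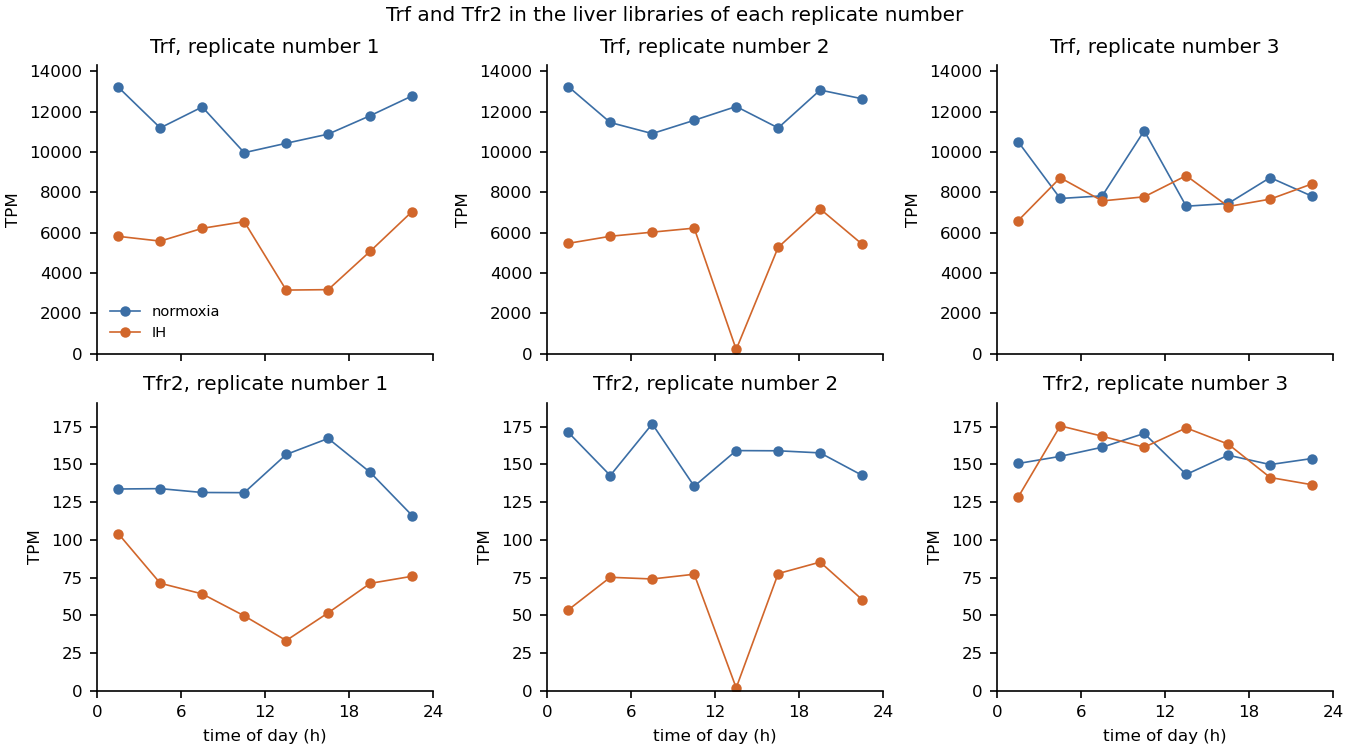
TPM of Trf and Tfr2 in the liver by labelled time point, with a panel for each gene and mouse number and a line for each treatment. The lines of normoxia and IH are apart for numbers 1 and 2 and close together for number 3, and the IH line of number 2 drops at 13:30.

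Markers of several cell types also differed between the treatments over all liver libraries. The summed level of the 8 hepatocyte markers averaged 60269 TPM in normoxia and 43778 TPM after IH, with 2 of 8 lower by limma, and Alb, the most abundant, went from 31277 to 21072 TPM. Erythroid markers went from 2820 to 5994 TPM, with 4 of 6 tested higher and 1 lower. Hbb-bs, the most abundant of them, went from 1116 to 2683 TPM. Kidney markers in the liver went from 24.7 to 96.7 TPM, with all 3 tested higher and Kap the most abundant, from 22.2 to 87.6 TPM. Their medians were further apart, at 3.47 and 83.1 TPM. Macrophage markers were at 135 and 136 TPM, with 1 of 8 higher. Heart markers in the liver went from a median of 8.79 to 22.4 TPM, with 4 of 7 tested higher and Myh6 the most abundant after IH, and the library at 13:30 that stands apart held 4170.2 TPM of them. In tissue RNA, fewer cells of a type and less RNA per cell cannot be told apart, and the part of these markers in the fall of Trf and Tfr2 was not tested. None of the other members changed in the liver by limma. Hamp was at 2937 ± 1206 TPM in normoxia and 3639 ± 1645 TPM after IH, a log2 difference of 0.28 with an adjusted p of 0.469. Without the library at 13:30 the difference of Hamp was 0.44 (adjusted p = 0.111 by limma). Tfrc was at 8.90 ± 4.46 and 6.72 ± 5.02 TPM, a difference of -0.40 with an adjusted p of 0.117.

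In the lung Trf fell as well, together with Tfrc, Ftl1 and Alas1. The lowest, median and highest values of Trf were 322, 379 and 421 TPM in normoxia and 176, 314 and 455 TPM after IH. The groups overlapped, with 14 IH libraries below every normoxia library and 1 above. The log2 change of Trf was -0.63 with a standard error of 0.0863 (limma, adjusted p = 1.3e-08), lower at 8 of 8 time points, and -0.59 without the lung library that stands apart. Within the mice numbered 1, 2 and 3, Trf changed by -0.61, -0.85 and -0.48. Tfrc changed by -0.37 (adjusted p = 1.7e-06), Ftl1 by -0.31 (adjusted p = 2.2e-06) and Alas1 by -0.45 (adjusted p = 0.00223), each lower at 8 of 8 time points on the scaled values. Alas1 rested on the mice numbered 1 and 2, at -0.61 and -0.84, with 0.07 in those numbered 3, and its adjusted p was 0.0641 without those numbered 1 and 0.0982 without those numbered 2.

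The lung calls depended on the scaling. On TPM as deposited the median change of all genes was 0.21 in place of -0.08. There, Trf was still lower, by a log2 change of -0.33 (adjusted p = 0.000171), whereas Tfrc at -0.07, Ftl1 at -0.00 and Alas1 at -0.15 no longer passed. On that scale 4 other members were higher: Slc11a2 by 0.25, Fth1 by 0.24, Slc40a1 by 0.28 and Ireb2 by 0.30. The deposited means of Ftl1 were 3061 ± 201 TPM in normoxia and 3059 ± 291 TPM after IH. Of the 4 genes, Trf alone was lower on both scales. The number of genes detected in the lung also differed, with a mean of 22694 in normoxia and 25455 after IH, and with its log2 as a further term Trf changed by -0.24 with an adjusted p of 0.0730 and Alas1 by 0.13. With that term Tfrc at -0.35 (adjusted p = 0.00295) and Ftl1 at -0.26 (adjusted p = 0.0053) were still lower. The 8 lung markers summed to 174690 TPM in normoxia and 127744 TPM after IH, with 8 of 8 lower (6 of 8 on TPM as deposited), and Scgb1a1, the most abundant, went from 127597 to 91397 TPM. The 8 erythroid markers summed to 67541 and 59135 TPM with 8 of 8 lower (6 of 8 on TPM as deposited), and heart markers went from 399.9 to 628 TPM with 5 of 8 higher (8 of 8 on TPM as deposited), Myl7 being the most abundant. Macrophage markers, with Csf1r the most abundant, went from 93.5 to 126 TPM with 1 of 5 tested higher (5 of 5 on TPM as deposited). The part of these differences in the changes of Trf, Tfrc, Ftl1 and Alas1 was not tested.

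In the kidney Trf rose. Its lowest, median and highest values were 24.0, 40.7 and 60.9 TPM in normoxia and 33.6, 52.9 and 82.2 TPM after IH. The groups overlapped, with 7 IH libraries above every normoxia library and none below. The mean went from 40.3 ± 9.67 to 55.2 ± 11.3 TPM, a log2 change of 0.50 with a standard error of 0.0821 (limma, adjusted p = 1.7e-05), higher at 8 of 8 time points. Within the mice numbered 1, 2 and 3 the change of Trf was 0.43, 0.66 and 0.41, and it did not pass in those numbered 1 alone (adjusted p = 0.123). In fits of at least 2 mouse numbers it passed under all 11 alternatives. Ftl1 rose from 3767 ± 482 to 4251 ± 639 TPM, a log2 change of 0.21 (adjusted p = 0.00644), and Hamp from 2.01 ± 0.643 to 2.81 ± 1.54 TPM, a log2 change of 0.39 (adjusted p = 0.0229), each higher at 8 of 8 time points. On TPM as deposited neither of these passed, with Ftl1 at 0.17 (adjusted p = 0.0867) and Hamp at 0.36 (adjusted p = 0.0637). Ftl1 did not pass without the mice numbered 1 (adjusted p = 0.0702) or 2 (0.0707) either, nor Hamp without those numbered 1 (0.188) or 3 (0.0517). In fits of at least 2 mouse numbers the change was at least 0.17 for Ftl1 and 0.33 for Hamp. Single numbers gave less, with Ftl1 at 0.13 in number 3 alone and Hamp at 0.24 in number 2 alone. Slc11a2 was at 35.3 ± 7.07 and 30.2 ± 8.51 TPM, a log2 difference of -0.21 with an adjusted p of 0.0558, and Slc40a1 at 21.1 ± 3.50 and 18.8 ± 2.83 TPM, a difference of -0.12 with an adjusted p of 0.0783. Erythroid markers were higher in these libraries, at 4320.1 TPM in normoxia and 7551 TPM after IH with 5 of 7 tested higher, and Hbb-bs, the most abundant, went from 2152 to 3853 TPM. The 8 kidney markers summed to 50848 and 44661 TPM with 1 of 8 higher and 1 lower. The part of the markers in the rise of Trf, Ftl1 and Hamp was not tested.

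In the heart the member with the largest change was Alas1. Its lowest, median and highest values were 40.8, 71.6 and 107 TPM in normoxia and 61.8, 109.7 and 148 TPM after IH. The groups overlapped, with 12 IH libraries above every normoxia library and none below. The mean went from 71.0 ± 17.2 to 109.95 ± 26.3 TPM, a log2 change of 0.50 with a standard error of 0.0875 (limma, adjusted p = 1.1e-05), higher at 8 of 8 time points. Slc11a2 rose from 5.66 ± 1.56 to 7.08 ± 1.55 TPM, a log2 change of 0.20 (adjusted p = 0.00132), higher at 8 of 8. Slc40a1 rose from 5.50 ± 1.26 to 7.00 ± 1.28 TPM, a change of 0.21 (adjusted p = 0.000651), and Trf from 80.7 ± 25.3 to 103.5 ± 24.1 TPM, a change of 0.26 (adjusted p = 0.0235), each higher at 7 of 8. Trf did not pass without any 1 of the 3 mouse numbers, with adjusted p of 0.0576, 0.0900 and 0.0804, while its change was 0.26, 0.25 and 0.26. Slc11a2 did not pass without the mice numbered 1, at 0.14 with an adjusted p of 0.0687. The median change of all genes in the heart was 0.04, and 0.15 on TPM as deposited, where the same 4 genes were higher.

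The heart libraries also differed in the genes detected, from 22988 to 28331 in normoxia and from 20316 to 22793 after IH. With the log2 of that number as a further term limma called 0 of the 9 members, with 1 (Tfrc) at an unadjusted p under 0.05, beside 2.01% of all genes called with that term. Alas1 was then at 0.14 (adjusted p = 0.607), Slc40a1 at 0.14 (0.387), Slc11a2 at 0.06 (0.723) and Trf at 0.32 (0.277). Since the ranges of genes detected do not overlap, that number and the treatment cannot be told apart in the heart. Macrophage markers rose from 39.3 to 57.04 TPM, with 4 of 5 tested higher and Csf1r, the most abundant, from 14.6 to 21.7 TPM, and their part in the rise of the 4 members was not tested. Heart markers summed to 12756 and 13767 TPM with 2 of 8 higher, and erythroid markers to 66408 and 70229 TPM with 0 of 8 called by limma.

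In the cerebellum Ftl1 was the only member called. Its lowest, median and highest values were 323, 500.3 and 861 TPM in normoxia and 332, 752 and 883 TPM after IH. The ranges overlapped almost fully, with 1 IH library above every normoxia library, and the shift is in the middle of the groups. The mean went from 534 ± 146 to 729 ± 117 TPM, a log2 change of 0.48 with a standard error of 0.0964 (limma, adjusted p = 0.000489), higher at 8 of 8 time points, and 0.49 with an adjusted p of 0.000288 without the cerebellum library that stands apart. Here too the mice numbered 3 differed: Ftl1 changed by 0.76 in those numbered 1, 0.57 in those numbered 2 and 0.12 in those numbered 3. In normoxia those numbered 3 averaged 697 ± 117 TPM, against 429.9 ± 77.2 and 477 ± 64.9 TPM in the others (SD over 8 libraries). Ftl1 did not pass without the mice numbered 1 (adjusted p = 0.0851) or without those numbered 2 (adjusted p = 0.151). Over all genes of the cerebellum the calls were split by number too, with 886 higher and 399 lower in the mice numbered 1 alone, 1769 and 660 in those numbered 2, and 0 and 0 in those numbered 3. The library that stands apart is among those numbered 3, and without it they gave 0 and 0 again, with Ftl1 at 0.15. Oligodendrocyte markers, from cells rich in ferritin, were at 3867 and 4446 TPM with 0 of 8 called by limma, and Mbp, the most abundant, at 1873 and 2397 TPM. Cerebellum markers were at 3880.3 and 4102 TPM with 0 of 8 called.

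In muscle no member passed. Tfrc came nearest, with a lowest, median and highest value of 18.6, 29.9 and 60.7 TPM in normoxia and 23.6, 37.8 and 65.9 TPM after IH, so the groups overlapped. Its means were 32.7 ± 9.73 and 42.1 ± 12.4 TPM, a log2 difference of 0.26 (unadjusted p = 0.0109, adjusted p = 0.0804 by limma), higher at 7 of 8 time points. It passed on TPM as deposited (0.36, adjusted p = 0.0256) and with the time point as a further term (adjusted p = 0.0293). Muscle markers summed to 128615 and 119692 TPM with 3 of 8 lower.

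Whether the response itself differed between tissues was tested with the treatment by tissue interaction over all libraries. By the study's methods several organs were collected from the mice of each time point, and this fit treats their libraries as independent. Of the 8 members that averaged 1 TPM or more in every tissue, 5 differed by limma, beside 89.2% of all such genes. Over all genes the count was 6 of 10 beside 82.3%, but the sixth, Tfr2, entered through its level in the liver and lies under 1 TPM in 4 tissues, so its F is not used. With libraries of 1 number, treatment and time treated as 1 animal, 7 of 10 differed, Slc40a1 being added. That count again includes Tfr2. Trf had the largest F among the 8, 15.5 (adjusted p = 2.3e-12). Its changes in the separate fits of each tissue ran from -0.84 in the liver to 0.50 in the kidney. Ftl1 followed with 11.4 (adjusted p = 2.8e-09), and its changes in the separate fits ran from -0.31 in the lung to 0.48 in the cerebellum. Tfrc had 5.20 (0.000261), Slc11a2 4.14 (0.00192) and Alas1 3.69 (0.0044). Slc40a1 at 2.29 (adjusted p = 0.0551), Fth1 at 1.53 and Ireb2 at 1.09 did not pass. Since most genes passed this test, the count of 5 is below the share of all genes.

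Over the day, 8 of the 58 pairs of gene and tissue that could be tested cycled in normoxia (called rhythmic below), 1 did after IH, and 0 did in both. A pair counted as rhythmic when a rank test and a Lomb-Scargle test at 24 hours, combined, gave an adjusted p (q) of 0.05 or less and the fitted cosine had an amplitude p of 0.05 or less. Both tests read the same values, so the combined p is too small, and with the rank test alone 5 pairs were rhythmic in normoxia and 0 after IH. The 5 were Alas1 in lung, liver and kidney, and Hamp and Tfrc in liver. Tfrc and Ireb2 in the cerebellum were not among them, and of all genes there the combined test called 1014 rhythmic in normoxia and the rank test alone 0. Of all genes, the share rhythmic in normoxia was 9.40% (lung), 15.5% (liver), 16.3% (kidney), 3.44% (muscle), 0.837% (heart) and 4.74% (cerebellum). After IH it was 11.6%, 8.23%, 3.59%, 7.75%, 4.10% and 0.0421% in the same order. Of the members, the lung had 2 that were rhythmic in normoxia, the liver 3, the kidney 1, the cerebellum 2, and muscle and heart 0 each.

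Among the rhythmic pairs, Alas1 in the liver had the lowest q and the largest amplitude relative to its mean. In the liver in normoxia its lowest, median and highest values were 34.5, 319.9 and 2035 TPM, and the fitted amplitude was 514.7 ± 91.4 TPM (standard error) or 103% of the mean, with a peak at 13.2 ± 0.678 h (q = 4e-06). In the kidney the amplitude of Alas1 was 104.0 ± 19.3 TPM, 51.6% of the mean, with a peak at 13.3 ± 0.709 h (q = 0.000191). In the lung it was 79.3 ± 13.53 TPM, 22.7% of the mean, with a peak at 11.9 ± 0.652 h (q = 0.00104). The peaks lie within 2 hours of each other. For reference, the clock genes peaked in the liver in normoxia at 6.68 h for Nr1d1, 9.41 h for Dbp, 14.6 h for Per2 and 22.4 h for Arntl. All peak times are in the hours of the sample titles, which do not say when the count of hours starts.

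Hamp and Tfrc in the liver peaked close to Alas1. Hamp had an amplitude of 1144 ± 265 TPM, 39.0% of its mean, with a peak at 13.4 ± 0.885 h (q = 0.00161). Tfrc had an amplitude of 4.31 ± 0.964 TPM, 48.5% of its mean, with a peak at 14.8 ± 0.854 h (q = 0.000492). In the lung Tfrc peaked at 15.99 ± 1.12 h with an amplitude of 3.33 ± 0.980 TPM (q = 0.0257). In the cerebellum Tfrc peaked earlier, at 8.36 ± 0.904 h, with an amplitude of 8.66 ± 2.05 TPM (q = 0.0275), and Ireb2 at 5.77 ± 1.05 h with 5.05 ± 1.38 TPM (q = 0.0406). Whether these peaks differ between tissues was not tested.

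After IH none of these 8 pairs passed. In the liver Alas1 had a q of 0.292, Tfrc 0.353 and Hamp 0.211, and Alas1 had 0.398 in the kidney and 0.295 in the lung. The fitted amplitude of Alas1 in the liver was 246 ± 112 TPM after IH, with a peak at 12.7 ± 1.74 h. That its rhythm passed in 1 treatment and not the other is no difference between them: the amplitude difference of Alas1 in the liver had an unadjusted p of 0.0700, and an adjusted p of 0.836 over genes rhythmic in either treatment, an adjustment chosen after seeing the data. The lowest unadjusted p among the 9 rhythmic pairs was 0.0681, for Ireb2 in the cerebellum. Since 0 pairs were rhythmic in both treatments, none entered the planned test of amplitude and peak time, a cosine fit of both treatments. Ftl1 in muscle was the 1 pair rhythmic after IH, with an amplitude of 254.7 ± 80.5 TPM and a peak at 15.4 ± 1.21 h (q = 0.0298), and it had a q of 0.844 in normoxia. Without the 3 libraries that stand apart, Tfrc in the lung and Hamp in the liver were rhythmic after IH as well, which made 3 pairs. Of these, 2 were rhythmic in both treatments. On log2 values 11 pairs were rhythmic in normoxia, 5 after IH and 2 in both.

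**Figure D4:**
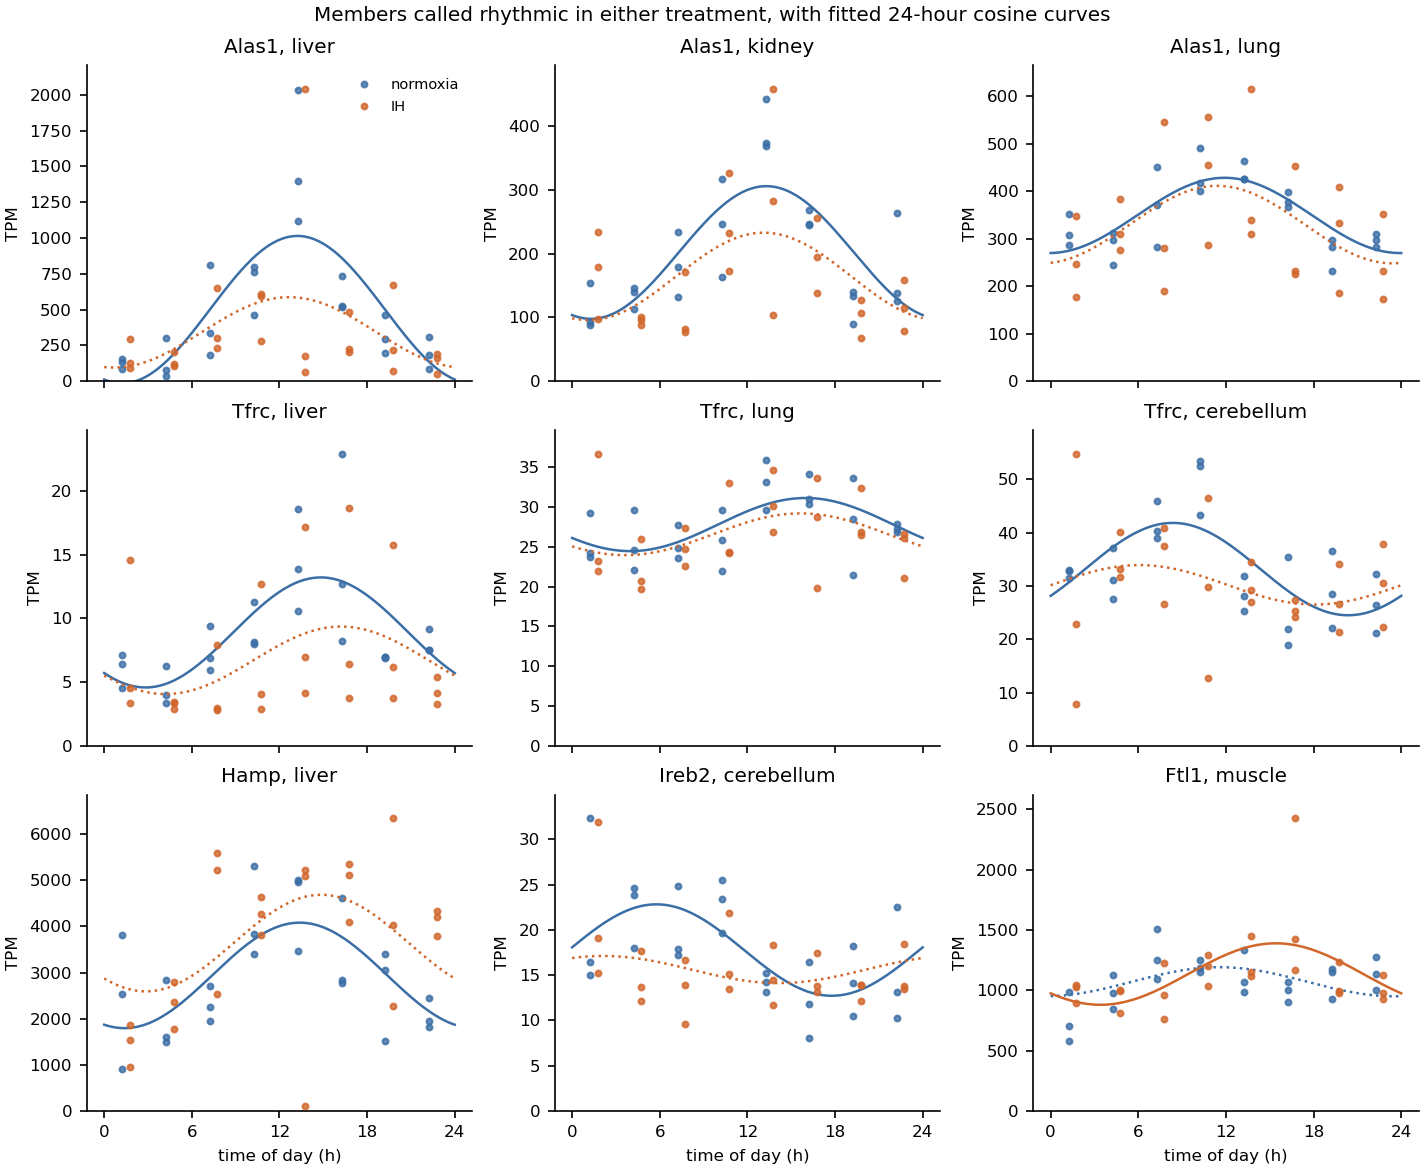
TPM by labelled time point for the 9 pairs of gene and tissue that were rhythmic in a treatment, with the fitted 24 hour curves solid where rhythmic and dotted where not. The curves of Alas1, Hamp and Tfrc in the liver in normoxia peak between 13.2 and 14.8 h.

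The wider pathway of 79 genes, which includes the 10, gives the setting for these changes. In the lung 73 were tested, with 9 higher and 47 lower and a median change of -0.24, beside 4464 higher and 6400 lower of all 15426 genes. But on TPM as deposited 29 of the pathway genes were higher and 13 lower, beside 8478 and 1655 of all genes, and those past 1.5-fold went from 3 higher and 7 lower to 7 higher and 0 lower. Among those past 1.5-fold in the lung, the metal importer Slc39a14 rose from 6.21 ± 1.29 to 14.2 ± 4.01 TPM and the haem synthesis enzyme Ppox from 16.2 ± 2.52 to 34.2 ± 11.8 TPM. Lower ones after scaling alone included Alas2, the red cell form of the enzyme Alas1 makes and itself 1 of the 8 erythroid markers, from 171 ± 55.9 to 120.2 ± 60.6 TPM, and the hepcidin inducer Bmp6 from 96.9 ± 18.6 to 79.2 ± 23.2 TPM. Without the lung library that stands apart, Bmp6 was no longer past 1.5-fold, and pathway genes lower past 1.5-fold went from 7 to 5. In the liver 7 of 70 were higher and 10 lower, beside 1240 and 1508 of all 11334 genes. On TPM as deposited it was 1 higher and 16 lower, beside 408 and 2059. Without the liver library that stands apart it was 9 higher and 13 lower, beside 1538 and 1720 of 11243. Next to Trf and Tfr2, the plasma ferroxidase Cp fell from 316 ± 37.3 to 193 ± 110 TPM, a log2 change of -0.86, and Aco1, the other iron regulatory protein, from 67.2 ± 13.7 to 46.6 ± 26.5 TPM, a change of -0.62. Without the liver library that stands apart, Aco1 was no longer past 1.5-fold. The haem scavenging receptor Lrp1 fell from 125 ± 41.5 to 56.3 ± 28.5 TPM, a change of -1.13.

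In the kidney 15 of 69 pathway genes were higher and 6 lower, beside 1064 and 1488 of all 12902 genes. On TPM as deposited it was 4 higher and 2 lower, beside 262 and 747. Lrp1 and Alas2 were the 2 past 1.5-fold, at log2 changes of 0.75 and 0.72, and Alas2 is 1 of the 5 erythroid markers that were higher in the kidney. In the heart 33 of 71 were higher and 8 lower, beside 3573 and 2207 of all 12779 genes, with 0 called by limma once the genes detected were a further term. Uptake genes in the heart had 9 of 13 higher, and export and hepcidin control genes 11 of 17. Genes of mitochondrial iron and iron-sulphur clusters had 3 higher and 6 lower of 13, and these role groups were not tested as sets. On TPM as deposited the uptake and export counts were the same, while the iron-sulphur list had 4 higher and 3 lower. There, 35 of all pathway genes in the heart were higher and 4 lower, beside 4788 and 816 of all genes. Bmp6 rose in the heart from 13.47 ± 4.18 to 21.7 ± 4.28 TPM. In the cerebellum 6 of 69 were higher and 3 lower, beside 1453 and 781 of all 14892 genes. Without the library that stands apart it was 9 higher and 5 lower of 68, beside 2122 and 1507 of 14861. Those past 1.5-fold there went from 1 higher and 0 lower to 1 higher and 1 lower. Glrx5, an iron-sulphur cluster protein, rose from 108.1 ± 33.1 to 184 ± 74.4 TPM. In muscle 1 of 67 was higher and 2 lower, beside 703 and 627 of all 12824 genes. On TPM as deposited 4 were higher and 0 lower there, beside 1865 and 81.

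Some reads of these genes may be shared with others. Trf shares 26307 of its 26444 bases with a same-strand gene, Gm20425, that is absent from the tables, and Hamp has a close copy, Hamp2, at 184 ± 75.2 TPM in the liver in normoxia and 268 ± 240.1 TPM after IH. The ferritin pseudogene Ftl1-ps1 stood at 10.1 ± 2.08 TPM in the liver, far under Ftl1.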

How the data were processed

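RNA of 6 tissues from 288 libraries was made into poly(A), strand-specific, paired-end libraries. The authors checked reads with FastQC 0.11.3, quantified them with kallisto, summed transcripts to genes and deposited TPM for 35904 genes. Library sums were 989211 to 999188 TPM, and read depth was not used here. The members and lists were chosen with earlier results of these data known.

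TPM was scaled by the median of ratios within a tissue and tested as log2 with 0.5 added, keeping genes that averaged 1 TPM or more, with limma 3.58.1 in R 4.3.3, treatment as the only term and Benjamini-Hochberg adjustment over all genes. Tissue pairs and the interaction were fitted with 1 scale over all libraries. Rhythms were tested on TPM, keeping genes that reached 1 TPM in any library, by a rank test of the JTK kind, a Lomb-Scargle test and cosine fits, in Python 3.11.15 (pandas 2.3.3, scipy 1.17.1, numpy 2.4.6, and matplotlib 3.10.9 for figures). The calls were checked on simulated data.

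Named are the 10 members, pathway genes past an adjusted p of 0.05 and 1.5-fold or abundant in their role, the most abundant gene of marker lists (hepatocyte, macrophage, erythroid, oligodendrocyte, lung, kidney, heart, muscle, cerebellum, 8 genes each), the nearest genes by Pearson r, 4 clock genes and gene copies. Alternatives were other pseudocounts and TPM minimums, TPM as deposited, time, replicate block or genes detected as a further term, libraries left out, single rhythm tests, log2 values for rhythms, and libraries with 1 number treated as 1 animal. Chosen after seeing the data were the 25% marker limit, leaving out the lung library or all 3 libraries, fits of single mouse numbers, or of numbers 2 and 3, without such a library, 1 animal for each number and a minimum in every tissue in the interaction, the adjustment over genes rhythmic in either treatment, giving the 1.5-fold shares of lung and liver for lower genes too, and the tissue order. That order first followed deposited TPM and was replaced by the fitted levels when the pair were seen to differ. The authors' DESeq2 tests need estimated counts, which were not used here.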

Additional observations from a re-analysis of the deposited data

Results flagged for a closer look

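The response to IH differed between tissues for 5 of the 8 genes that averaged 1 TPM or more in every tissue, by the interaction test of limma, beside 89.2% of all such genes. The F was 15.5 for Trf, which in the separate fits of each tissue was lower in lung and liver and higher in kidney and heart. Of these 4 calls of Trf, only that in the kidney passed every alternative fit of at least 2 mouse numbers. Elsewhere its highest adjusted p by limma over these fits was 0.0730 (lung), 0.162 (liver) and 0.277 (heart). For Ftl1 the F was 11.4, with lower values in the lung and higher ones in kidney and cerebellum. On TPM as deposited the lung difference of Ftl1 was -0.00, and its kidney difference of 0.17 did not pass (adjusted p = 0.0867 by limma). The F was 5.20 for Tfrc, 4.14 for Slc11a2 and 3.69 for Alas1. What lies behind these differences was not tested.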

How the results depend on the processing

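Over 630 alternative values of single genes, 586 kept their side of the threshold, of which 32 changed sign with neither value past it. Another 25 lost their call, 14 gained one, and 5 changed sign with a call in 1 of the 2 fits only. These 5 are all in the lung. Slc11a2 at 0.25 and Fth1 at 0.24 were called on TPM as deposited alone. With genes detected as a term, Slc11a2 at 0.29 and Ireb2 at -0.12 were called there alone, and Alas1 at 0.13 was called in the main fit alone. Other pseudocounts and TPM minimums moved no call, and most of the 55 tested pairs were not called in the main fit. Of the 14 called pairs, Trf in the kidney alone passed under every alternative that kept at least 2 mouse numbers. The causes were not tested.

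On TPM as deposited, the count at 1.5-fold went from 1 to 0 in the lung and from 0 to 1 in the heart, the count in the kidney from 3 to 1, and that in muscle from 0 to 1, as it also did with time as a term. With genes detected as a term, the count at 1.5-fold in the lung was 0 and the count in the heart 0. With a replicate block the counts were 4 (lung), 2 (liver), 4 (kidney), 0 (muscle), 4 (heart) and 1 (cerebellum). The 1 gained in the kidney was Slc11a2 with an adjusted p of 0.0495 by limma. In the interaction 7 of 10 members differed, as with 1 number, treatment and time as 1 animal. That test covered Tfr2, whose F is not used because it lies under 1 TPM in 4 tissues.

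Leaving out each replicate number in turn gave 3 to 6 changed members in the lung (0 to 2 at 1.5-fold), 0 to 3 in the liver (0 to 3), 1 to 4 in the kidney, 2 to 3 in the heart, and 0 to 2 in the cerebellum (0 to 1). It gave 4 to 6 rhythmic pairs, all 4 to 6 of them in normoxia and 0 to 0 after IH. Rhythmic pairs were 5 by the rank test alone and 5 by the cosine test alone, all in normoxia with 0 after IH, 14 on log2 values, of which 5 after IH, and 3 after IH without the 3 libraries. Neighbouring tissues differed in 44 of 50 pairs on TPM as deposited and in 40 when ordered by deposited TPM.

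Same-numbered libraries of the treatments correlated above 0.1 in 16 of 24 pairs (liver), 12 (muscle), 8 (heart), 7 (cerebellum), 6 (kidney) and 5 (lung). No tissue had this in every pair, and the numbers were not used as pairs. This count does not decide whether same-numbered libraries belong together. In the liver the median r was 0.22 for pairs with 1 number and -0.12 for others, and 14 of 24 correlated best with their own number. Read depth per library was not used here, so its bearing on genes near 1 TPM, such as Tfr2 outside the liver, was not tested.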
